A study of Mus musculus with 6 samples.

Results

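The 10 genes described here carry out peptide presentation on MHC class I: the heavy chains H2-K1 and H2-D1, the light chain B2m, the peptide transporter subunits Tap1 and Tap2, tapasin (Tapbp), the immunoproteasome subunits Psmb8, Psmb9 and Psmb10, and the transcriptional regulator Nlrc5. They were chosen by their known role and not by a measured value, though with earlier results of these data known. They were found by joining the transcripts of each library to genes of GRCm38. All 10 passed the filter on low counts, among 20094 genes tested and 36047 genes joined. RNA from the infarct area of the heart was sequenced in 6 libraries of C57BL6 mice, aged 12 weeks and harvested 48 h after ischemia/reperfusion (I/R), an injury in which a coronary artery is closed and reopened. The mice were female by the methods of the study. In 3 libraries the animals had received LGK-974 (LGK974 in the labels), an inhibitor of the secretion of Wnt proteins given by oral gavage, and in 3 libraries its solvent DMSO. All animals were injured, so both groups carry the infarct and no uninjured heart is included. The tissue is a mixture of cell types, and in such bulk RNA fewer cells of a type and less RNA per cell cannot be told apart.

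MHC class I molecules show peptides from inside the cell to CD8 T cells and to receptors of natural killer cells. Cytosolic proteins are cut by the proteasome, the peptides are pumped into the endoplasmic reticulum by the TAP transporter, and tapasin holds the transporter and the empty class I molecule together while a peptide is loaded. Interferons raise most of these genes, exchange the constitutive catalytic subunits of the proteasome for the immunoproteasome subunits, and induce NLRC5, which acts at a composite promoter element of class I genes through RFX, CREB/ATF and NF-Y proteins. Leukocytes carry much more class I than cardiomyocytes do.

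The sequences upstream of the class I chains are shown first, because H2-K1, H2-D1 and B2m share elements at the same distance from each other. The reference sequences are from RefSeq (GRCm38.p6), where 8 of the 10 members matched by symbol and Tap2 and Nlrc5 did not. The searched window was the 250 bases before the RefSeq start. The gene positions given with the values are those of GENCODE, which joins all transcripts and can start further upstream: the RefSeq start lay 364 bases downstream of the GENCODE start in H2-D1, 434 in Psmb9, 474 in Psmb8 and 3579 in Tapbp, and 0 to 52 bases downstream in H2-K1, B2m, Tap1 and Psmb10. The H2-D1 sequences below therefore lie downstream of the GENCODE start of H2-D1. In the H2-K1 window (chr17:34000348-34000597, minus strand) and the B2m window (chr2:122147437-122147685, plus strand), capitals mark, in the order of the sequence, an NF-kappaB consensus, the core of an interferon-response element (AANNGAAA), TGACG and CCAAT, each on either strand, with the interferon core before the NF-kappaB consensus in B2m.
H2-K1 upstream: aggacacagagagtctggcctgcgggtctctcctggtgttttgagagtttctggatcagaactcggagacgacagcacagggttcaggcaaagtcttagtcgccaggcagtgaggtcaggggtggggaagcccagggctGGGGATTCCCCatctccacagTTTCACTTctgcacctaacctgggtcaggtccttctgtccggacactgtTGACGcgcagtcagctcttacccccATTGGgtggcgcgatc
B2m upstream: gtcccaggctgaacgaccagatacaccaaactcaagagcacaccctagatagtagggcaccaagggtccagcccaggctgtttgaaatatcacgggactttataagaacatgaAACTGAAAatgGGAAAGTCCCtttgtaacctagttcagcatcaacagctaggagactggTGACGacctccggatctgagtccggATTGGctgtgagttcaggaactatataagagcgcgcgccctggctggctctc
The 30 bases with the NF-kappaB consensus and the interferon core of H2-D1 (chr17:35262923-35262952, plus strand) were identical to those of H2-K1 (chr17:34000429-34000458, minus strand) at 29 of 30 positions. Over the 190 bases shared when both windows were laid on their TGACG match, 166 bases (87.4%) were identical.
H2-K1 enhancer: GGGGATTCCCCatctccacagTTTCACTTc
H2-D1 enhancer: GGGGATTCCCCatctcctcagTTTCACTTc
Further downstream, TGACG was followed after 20 bases by ATTGG, which is CCAAT on the other strand, in H2-K1 (chr17:34000359-34000388, minus strand), H2-D1 (chr17:35262993-35263022, plus strand) and B2m (chr2:122147609-122147638, plus strand).
H2-K1 module: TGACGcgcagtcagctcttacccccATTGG
H2-D1 module: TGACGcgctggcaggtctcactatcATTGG
B2m module: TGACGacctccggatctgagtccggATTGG
Of the 20 bases between these elements, 13 were identical between H2-K1 and H2-D1, 3 between H2-K1 and B2m, and 2 between H2-D1 and B2m. This spacing, read on the strand of the gene, was found in 18 of 32851 windows (0.0548%) of 15 genes, among them a further heavy chain, H2-M3. Of 14 heavy chain genes of the H2 locus with a window, only 3 had it (H2-K1, H2-D1 and H2-M3). The spacing was not found in the other 5 members with a window. The spacing was looked for after the 3 sequences had been seen.

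Single motifs were more common among all windows, searched on both strands. TGACG was found in 5 of 8 members (H2-K1, H2-D1, B2m, Tap1 and Psmb9) and in 17.8% of all windows, and CCAAT in 6 of 8 members and 33.8% of windows. The NF-kappaB consensus was found in H2-K1, H2-D1 and B2m and in 3.9% of windows. The full interferon-stimulated response element (GAAA, 2 bases and GAAA) was found in B2m alone (2.98% of windows), whereas the core AANNGAAA, which is contained in it, was found in B2m, H2-K1 and H2-D1 and in 21.3% of windows. The gamma-activated element TTCNNNGAA was found in Psmb8 alone (7.02% of windows). Tap1 and Psmb9 lie head to head, with RefSeq starts 226 bases apart, whereas the GENCODE forms overlap. The TGACG of both is the same site, 86 bases before the start of Tap1 and 144 bases before that of Psmb9 in RefSeq. The site lies inside the GENCODE limits of Psmb9. It is printed here because both genes share it, without ATTGG at that spacing (chr17:34187470-34187499, plus strand).
Tap1 and Psmb9 shared site: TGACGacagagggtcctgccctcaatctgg
A match describes the reference letters and is not evidence of binding.

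The libraries held between 41579787 and 80398211 estimated counts, 28.2% to 53.7% of them mitochondrial. In LGK-974 3 the mitochondrial share was lowest, at 28.2% against 39.3% to 53.7% in the other libraries. Its factor for scaling library size (TMM) was 1.40, against 0.82 to 1.06 in the others. The library DMSO 1 stood apart in other measures. The 1501 receptor genes of smell, pheromone and taste families were taken as unused in the heart. They had a median of 42.9 counts per kb of transcript in DMSO 1 against 3.92 to 15.6 in the other libraries. The correlation below is that of DMSO 1. DMSO 1 correlated with the other libraries (log2 CPM across genes, CPM being counts scaled to library size) at 0.878 to 0.944. The others correlated at 0.961 to 0.987 with each other. The fold changes of the members, and those of other genes that this library moved, are therefore also given without DMSO 1. The group labels were taken as given and were not checked against the RNA. By the methods of the study each library is from a different animal, 3 per group.

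The class I presentation genes were higher in the LGK-974 libraries as a group, but none passed the test after adjustment over all genes. The log2 fold change was above 0 for 10 of 10 members, with a median of 0.61 against -0.13 over all tested genes. By edgeR's quasi-likelihood test, 7 of 10 members were higher at an unadjusted p under 0.05 (H2-K1, H2-D1, B2m, Tap1, Psmb8, Psmb10 and Nlrc5), where 6.26% of all tested genes were. After Benjamini-Hochberg adjustment, 0 of 10 members and 0 of 20094 genes (0%) had an adjusted p under 0.05, with 2699 genes at an unadjusted p under 0.05. DESeq2 called 315 of 22238 genes (1.42%, with 0.985% of all genes higher) and 2 members, both higher, B2m (adjusted p = 0.0336) and Nlrc5 (adjusted p = 0.0472).
In the same 7 members every LGK-974 library lay above every DMSO library, which held for 10.7% of all tested genes. Tap2, Tapbp and Psmb9 overlapped. LGK-974 3 was the highest library for 8 of 10 members and DMSO 1 the lowest for 8 of 10. Without DMSO 1, 6 of 10 members remained at an unadjusted p under 0.05 (7.12% of genes higher), all of the 7 but H2-K1, with a median log2 fold change of 0.51 against -0.02 over all genes. Without LGK-974 3, 4 members did (3.23% of genes higher), namely B2m, Tap1, Psmb8 and Nlrc5, with a median of 0.57.

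**Figure D1:**
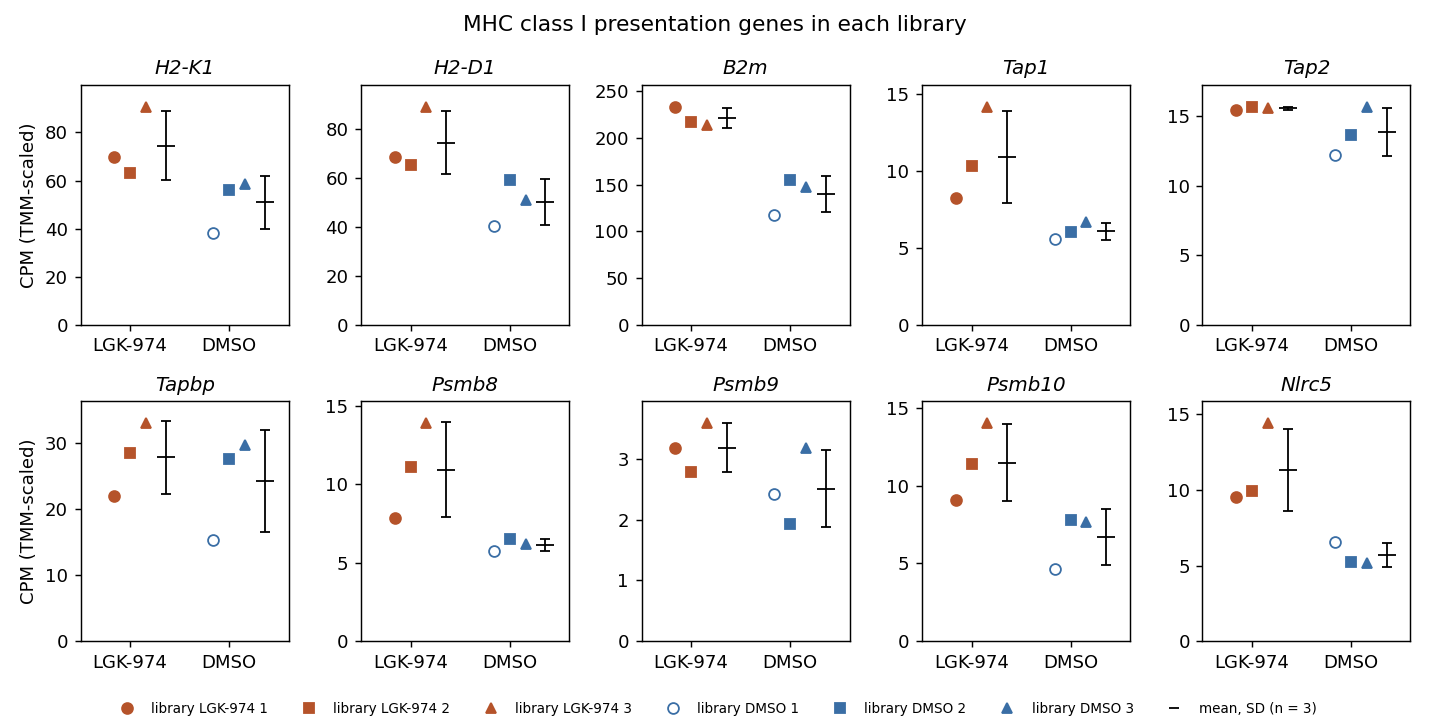
CPM (scaled by TMM factors, y axis from 0) of the 10 members in each of the 6 libraries, with the group mean and SD (n = 3) beside the points and DMSO 1 drawn as an open symbol. The 3 LGK-974 libraries sit above the 3 DMSO libraries in 7 panels, and the groups overlap for Tap2, Tapbp and Psmb9.

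The classical heavy chains differed by similar amounts. H2-K1 (chr17:33996017-34000347, minus strand) was at 69.7, 63.3 and 90.7 CPM in the LGK-974 libraries 1 to 3 and at 38.3, 56.0 and 58.4 CPM in the DMSO libraries 1 to 3. The groups did not overlap, but the lowest LGK-974 library was close to the highest DMSO library. The log2 fold change was 0.55 (SE 0.223, adjusted p = 0.368 by edgeR), and 0.40 without DMSO 1 (SE 0.184). H2-D1 (chr17:35262730-35267499, plus strand) was at 68.6, 65.3 and 88.9 CPM with LGK-974 and at 40.1, 59.2 and 51.0 CPM with DMSO. Its groups were separate too, with LGK-974 3 well above the rest. The log2 fold change of H2-D1 was 0.57 (SE 0.205, adjusted p = 0.368 by edgeR), and 0.45 without DMSO 1.
Heavy chain genes can share reads, which the quantification divided between them, so each value is uncertain. How similar their transcripts are was not measured. The counts of the 18 class I heavy chain genes of the H2 locus were therefore also summed, of which H2-K1 and H2-D1 held 39.1% to 59.5% and H2-Q4 13.7% to 27.0%. The sum was 251, 224 and 302 CPM with LGK-974 and 201, 203 and 198 CPM with DMSO. The groups did not overlap and the DMSO libraries were nearly equal, at a mean of 200.8 ± 2.54 CPM (SD, n = 3). In DMSO 1, however, H2-K1 and H2-D1 were lowest. Its other heavy chains were high, at 122 CPM summed against 88.3 and 89.1 CPM in DMSO 2 and 3. These deviations offset each other in the sum. The log2 fold change of the sum was 0.37 (SE 0.184, adjusted p = 0.381 by edgeR), and 0.38 without DMSO 1.

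The other heavy chains lay on both sides of 0. Of 16 such genes, 13 passed the filter and 2 were higher at an unadjusted p under 0.05, where 6.26% of all tested genes were. The median log2 fold change was -0.06 (0.31 without DMSO 1). H2-M3, which presents N-formylated peptides, was at 4.17, 4.05 and 6.01 CPM with LGK-974 and 1.56, 2.61 and 1.94 CPM with DMSO (log2 fold change 1.22, SE 0.329, adjusted p = 0.368 by edgeR). H2-T24 was at 18.7, 17.0 and 18.1 CPM with LGK-974 and 12.1, 11.4 and 12.8 CPM with DMSO (log2 fold change 0.57, adjusted p = 0.368 by edgeR). Both genes had separate groups, and without DMSO 1 their log2 fold changes were 1.08 and 0.58. H2-T23, which encodes Qa-1, the ligand of NKG2 receptors, had a log2 fold change of 0.34 with overlapping groups. Log2 fold changes of the other 10 did not reach an unadjusted p of 0.05: 0.46 for H2-T22, 0.21 for H2-Q6, 0.12 for H2-Q7, -0.08 for H2-Q4, -0.06 for H2-T10 and -0.42 for H2-Q10. H2-Q1, H2-M2, H2-Bl and H2-M5 stayed at or under 2.37 CPM in every library, with log2 fold changes of -1.73, -1.19, -1.05 and -0.92. Each of these 4 was highest in DMSO 1, the library with the raised counts on genes taken as unused, and without it they had -1.16, -0.17, -0.39 and -0.28. Without DMSO 1, the log2 fold change turned above 0 for H2-Q4 (0.18) and H2-T10 (0.78), and was 0.31 for H2-T22, 0.40 for H2-T23, 0.41 for H2-Q6, 0.33 for H2-Q7 and -0.28 for H2-Q10.

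B2m, the light chain shared by all class I molecules (chr2:122147686-122153083, plus strand), was the most abundant member. It was at 233, 217 and 214 CPM with LGK-974 and at 118, 155 and 147 CPM with DMSO. The gap between the groups was larger than the spread within either of them, 221 ± 10.4 CPM against 140 ± 19.5 CPM (SD, n = 3). This corresponded to a log2 fold change of 0.66 (SE 0.179, adjusted p = 0.368 by edgeR), and 0.57 without DMSO 1. B2m has a single annotated transcript and no exon shared with another gene. On the TPM scale, which is per transcript length and allows genes to be compared, B2m had a mean of 273 over the 6 libraries, followed by H2-K1 at 58.8 and H2-D1 at 36.5. This order, with Psmb10 (16.7 TPM) below H2-D1, held within each of 6 libraries. Lower down, Tapbp (13.4 TPM), Psmb8 (11.4 TPM) and Tap2 (8.39 TPM) followed Psmb10, and neighbours kept this order in 4, 4 and 5 of 6 libraries. Tap2 lay above Tap1 (3.52 TPM) in 6 of 6 libraries, while Tap1, Nlrc5 (3.46 TPM) and Psmb9 (3.18 TPM) changed places, in order in 3 and 4 of 6 libraries. The TPM ratio of H2-K1 plus H2-D1 to B2m was 0.283, 0.275 and 0.414 with LGK-974 and 0.320, 0.361 and 0.385 with DMSO. It overlapped between the groups, with a log2 difference of -0.16 (exact two-sided permutation test, p = 0.5, adjusted p = 0.625 over 5 ratios).

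The TAP subunits form a heterodimer, of which Tap1 and not Tap2 was higher at an unadjusted p under 0.05. Tap1 (chr17:34187553-34197225, plus strand) was at 8.25, 10.3 and 14.2 CPM with LGK-974 and at 5.57, 6.0 and 6.64 CPM with DMSO. The groups were separate, and the LGK-974 libraries spread more widely. Tap1 had a log2 fold change of 0.85 (SE 0.240, adjusted p = 0.368 by edgeR), and 0.80 without DMSO 1. Tap2 (chr17:34203527-34216321, plus strand) was at 15.4, 15.7 and 15.5 CPM with LGK-974 and at 12.2, 13.6 and 15.6 CPM with DMSO. The LGK-974 libraries were almost equal and DMSO 3 lay among them. Its log2 fold change was 0.17 (SE 0.156, adjusted p = 0.591 by edgeR), and 0.10 without DMSO 1. Tap2 shares 533 exon bases with Gm15821 and 165 with Gm20496, both on the other strand.
The Tap1 to Tap2 ratio in TPM was 0.421, 0.499 and 0.585 with LGK-974 and 0.372, 0.270 and 0.251 with DMSO. It was higher in each LGK-974 library than in any DMSO library, by 0.76 on the log2 scale (0.93 without DMSO 1). The exact two-sided permutation test gave p = 0.1, the smallest it can give with 3 against 3 libraries, and an adjusted p of 0.25 over the 5 ratios, so the design could not reach 0.05. With only the dominant transcript of each gene the groups overlapped (log2 difference 0.64, exact permutation test, p = 0.7). The dominant Tap2 transcript is annotated as a retained-intron form and not as protein-coding.

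Tapasin (Tapbp, chr17:33915899-33929292, plus strand) was at 22, 28.4 and 33.0 CPM with LGK-974 and at 15.3, 27.5 and 29.6 CPM with DMSO. Only DMSO 1 lay clearly below the others. Its log2 fold change was 0.20 (SE 0.271, adjusted p = 0.716 by edgeR), and it turned to -0.028 without DMSO 1 (SE 0.187). Without strand in the stated quantification, reads of a gene and of an overlapping gene on the other strand cannot be told apart. Tapbp shares 149 exon bases with Zbtb22 on the same strand and 904 with the antisense gene Gm19412.

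Psmb8 and Psmb10 were higher with LGK-974 at an unadjusted p under 0.05, and Psmb9 did not reach that p. No test compared Psmb9 with Psmb8 or Psmb10. Psmb8 (chr17:34197721-34201454, plus strand), which replaces Psmb5 as the chymotrypsin-like subunit, was at 7.82, 11.1 and 13.9 CPM with LGK-974 and at 5.76, 6.48 and 6.17 CPM with DMSO. The DMSO libraries were tightly grouped and below all LGK-974 libraries. Psmb8 had a log2 fold change of 0.83 (SE 0.241, adjusted p = 0.368 by edgeR), and 0.80 without DMSO 1. Psmb10 (chr8:105935735-105938444, minus strand), which replaces Psmb7, was at 9.05, 11.4 and 14.0 CPM with LGK-974 and at 4.65, 7.82 and 7.66 CPM with DMSO. The groups were separate, with DMSO 1 the lowest library. Psmb10 had a log2 fold change of 0.77 (SE 0.268, adjusted p = 0.368 by edgeR), and 0.58 without DMSO 1.
Psmb9 (chr17:34181987-34187764, minus strand), which replaces Psmb6, had the fewest counts of the members (93 to 270 per library). It was at 3.18, 2.78 and 3.59 CPM with LGK-974 and at 2.42, 1.92 and 3.18 CPM with DMSO. DMSO 3 matched LGK-974 1, and the log2 fold change was 0.34 (SE 0.325, adjusted p = 0.598 by edgeR), or 0.33 without DMSO 1. Psmb9 and Tap1 share 212 exon bases on opposite strands, and Psmb8 shares 498 with the antisense gene Gm20496.

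The constitutive partners overlapped between the groups. Psmb5 was at 14.7, 18.1 and 19.1 CPM with LGK-974 and 10.01, 18.9 and 19.5 CPM with DMSO (log2 fold change 0.10). The values of Psmb6 were 47.0, 48.2 and 50.2 CPM against 39.1, 47.7 and 48.9 CPM (log2 fold change 0.10). For Psmb7 they were 58.2, 62.4 and 48.6 CPM against 53.3, 61.1 and 57.7 CPM (log2 fold change -0.02). In each of the 3 genes the groups overlapped, with adjusted p-values of 0.866, 0.744 and 0.95 by edgeR.
Within a library, the Psmb10 to Psmb7 ratio in TPM was 0.329, 0.275 and 0.512 with LGK-974 and 0.202, 0.202 and 0.198 with DMSO. The DMSO libraries were almost equal and below every LGK-974 library, with a log2 difference of 0.84 (exact two-sided permutation test, p = 0.1, adjusted p = 0.25), and 0.85 without DMSO 1. With only the dominant transcript of each gene the difference was 1.85 and the groups overlapped (exact permutation test, p = 0.2). The dominant Psmb10 transcript is a form of 426 bases not annotated as protein-coding, with 5.76% to 67.4% of the TPM of the gene. The Psmb8 to Psmb5 ratio was 0.496, 0.585 and 0.633 with LGK-974 and 0.507, 0.294 and 0.291 with DMSO. DMSO 1 alone overlapped the LGK-974 libraries, and the log2 difference was 0.69 with it (exact two-sided permutation test, p = 0.2, adjusted p = 0.333) and 0.96 without it. The Psmb9 to Psmb6 ratio was 0.0321, 0.0326 and 0.0443 with LGK-974 and 0.0449, 0.0320 and 0.0436 with DMSO. These overlapped fully, with a log2 difference of -0.14 (exact two-sided permutation test, p = 0.8) whose sign turned in CPM, at 0.26.

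**Figure D2:**
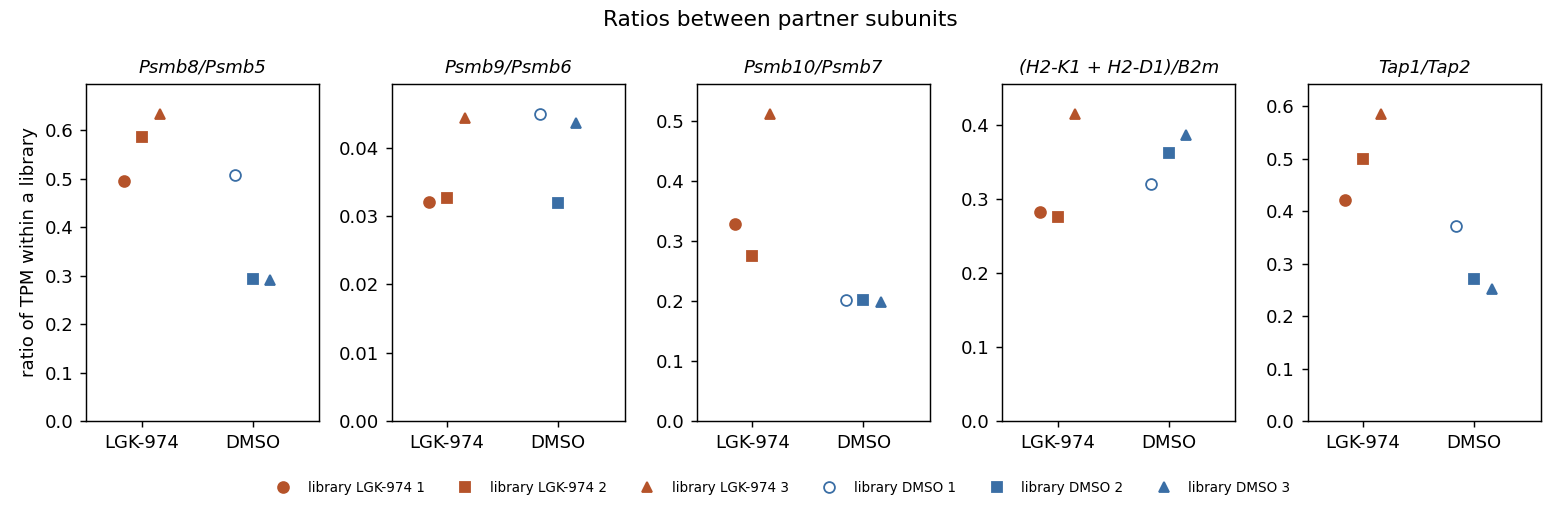
Ratio of TPM within each library (y axis from 0) for the 3 immunoproteasome subunits over their constitutive partners, for the heavy chains over B2m and for Tap1 over Tap2, 3 LGK-974 and 3 DMSO libraries each, with DMSO 1 as an open symbol. Psmb10/Psmb7 and Tap1/Tap2 separate the groups, Psmb8/Psmb5 overlaps through DMSO 1 alone, and the other ratios overlap.

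Psmb9, Tap1, Psmb8 and Tap2 lie in this order within 34335 bases (chr17:34181987-34216321) and had log2 fold changes of 0.34, 0.85, 0.83 and 0.17. Whether those of Tap1 and Psmb8 differ from those of Psmb9 and Tap2 was tested only for Tap1 against Tap2, by the ratio given above.

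Nlrc5, the regulator of class I genes (chr8:94434356-94527272, plus strand), had the largest log2 fold change of the 10 members. It was at 9.53, 9.93 and 14.4 CPM with LGK-974 and at 6.59, 5.25 and 5.18 CPM with DMSO. The groups were separate, and DMSO 1 was here the highest of the DMSO libraries. Nlrc5 had a log2 fold change of 0.99 (SE 0.232, adjusted p = 0.368 by edgeR), and 1.13 without DMSO 1 (SE 0.226). It shares 78 exon bases with 9330175E14Rik on the other strand.

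**Figure D3:**
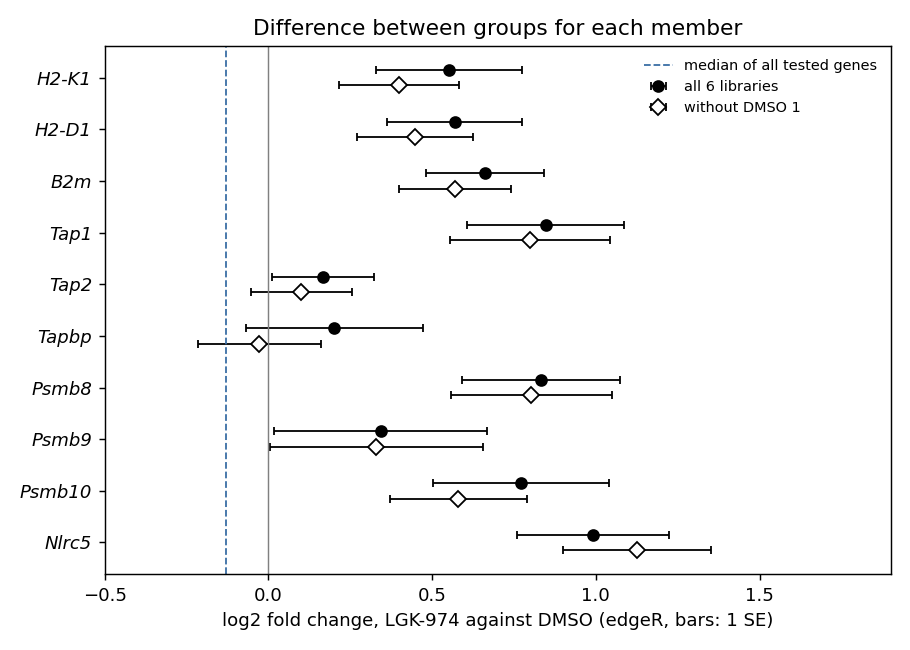
Log2 fold change of each member, LGK-974 against DMSO, with a bar of 1 SE (edgeR), for all 6 libraries (filled circles) and without DMSO 1 (open diamonds). The dashed line is the median of all tested genes (-0.13), Nlrc5 lies farthest from it, and Tapbp moves to -0.028 without DMSO 1.

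The transcripts behind each gene sum differed between the members. As a share of the TPM of the gene, protein-coding transcripts held all of B2m, 97.7% to 100% of H2-D1 and 69.1% to 80.1% of H2-K1. For Nlrc5, the coding transcripts held 28.6%, 30.6% and 33.0% with LGK-974 and 42.3%, 45.5% and 39.0% with DMSO. The coding share of Nlrc5 was thus lower in every LGK-974 library, while the gene sum was higher. Psmb8 went the other way, with a coding share of 83.2%, 88.9% and 83.0% with LGK-974 and 71.8%, 79.2% and 81.9% with DMSO. In the other 8 members the groups overlapped or the share was 100%. In Tap2 the most abundant transcript was a retained-intron form of 2561 bases with 39.9% to 64.3% of the TPM. The coding share was 25.2% to 64.9% in Tap1, 17.5% to 67.1% in Psmb9, 16.1% to 42.6% in Psmb10 and 71.1% to 80.9% in Tapbp. No test was made of these shares, and how often such shares separate the groups over all genes was not computed.

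**Figure D4:**
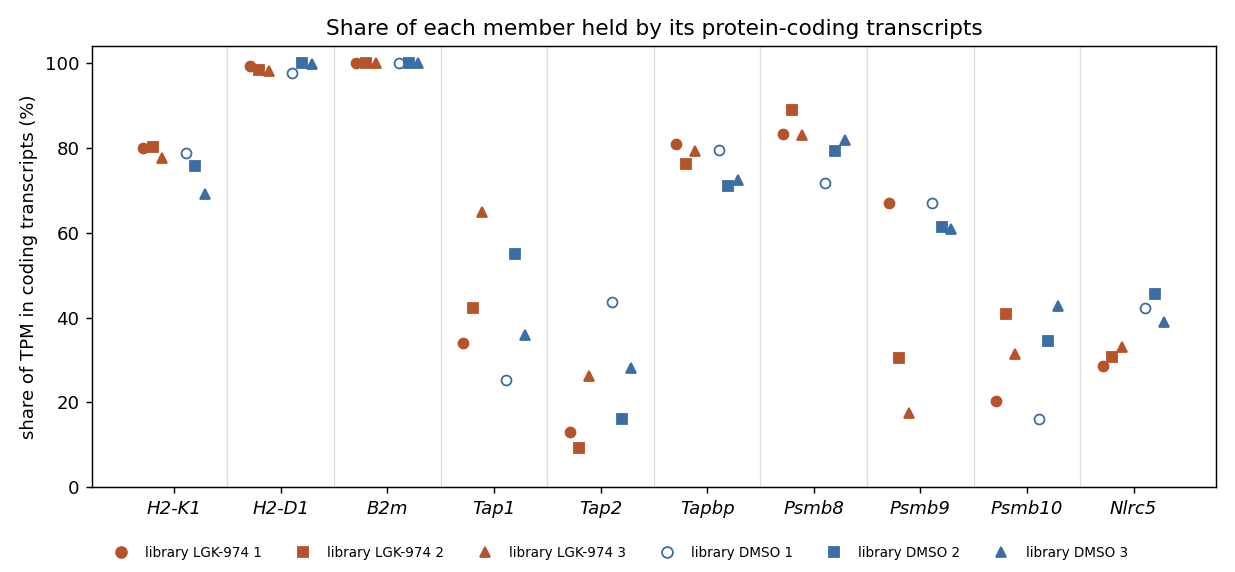
Share of each member's TPM held by protein-coding transcripts (percent, y axis from 0), in each of the 3 LGK-974 and 3 DMSO libraries, with DMSO 1 as an open symbol. Nlrc5 is lower in the LGK-974 libraries (28.6% to 33.0% against 39.0% to 45.5%), Psmb8 is higher, and the remaining members overlap.

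Among the further genes of the pathway, 3 chaperones were higher with LGK-974 at an unadjusted p under 0.05, and 0 genes of peptide trimming and of the rest of the proteasome. Over all tested genes 6.26% were higher at that p. The 3 belong to a list of 6 loading and endoplasmic reticulum chaperones, of which 0 had an adjusted p under 0.05 by edgeR, with a median log2 fold change of 0.50 (0.40 without DMSO 1). Pdia3 (ERp57), the partner of tapasin, was at 317, 280 and 338 CPM with LGK-974 and 155, 201 and 184 CPM with DMSO, with a log2 fold change of 0.79 (adjusted p = 0.368 by edgeR and 0.00656 by DESeq2). Calreticulin (Calr) had a log2 fold change of 0.66 and Hspa5 (BiP), a general chaperone, one of 0.66. Without DMSO 1 the log2 fold changes were 0.71 for Pdia3, 0.56 for Calr and 0.51 for Hspa5. All 3 serve the folding of many proteins besides class I.
Of 8 peptide-trimming genes none reached an unadjusted p of 0.05. Thop1, which degrades peptides in the cytosol, had a log2 fold change of 0.40, Blmh 0.23 and Npepps -0.20. The 11 other subunits of the 20S core likewise gave 0, with a median log2 fold change of 0.10, and Psma4, Psma5 and Psma2, those of smallest p, had 0.21, 0.25 and -0.15. Of 9 activator and assembly genes none did either, with log2 fold changes of 0.68 for Psmg3, -0.61 for Psme4 and 0.31 for Psme3.

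In the list of interferon gamma signalling and class I transcription, 4 of 22 tested genes were higher at an unadjusted p under 0.05. Over all tested genes 6.26% were. The median log2 fold change of the list was 0.28, or 0.21 without DMSO 1. Stat2 and Irf9, factors of the type I interferon response, had log2 fold changes of 0.61 and 0.55 with separate groups, and Irf8, a factor of myeloid cells named here after its value was seen, had 0.57. Irf1, a factor induced by interferon gamma, overlapped between the groups at 11.7, 12.8 and 18.2 CPM with LGK-974 and 10.2, 11.4 and 13.4 CPM with DMSO (log2 fold change 0.28, adjusted p = 0.517 by edgeR). Ifng itself was at 0 to 0.0470 CPM in the LGK-974 libraries and at 0 to 0.352 CPM in the DMSO libraries and was not tested.

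**Figure D5:**
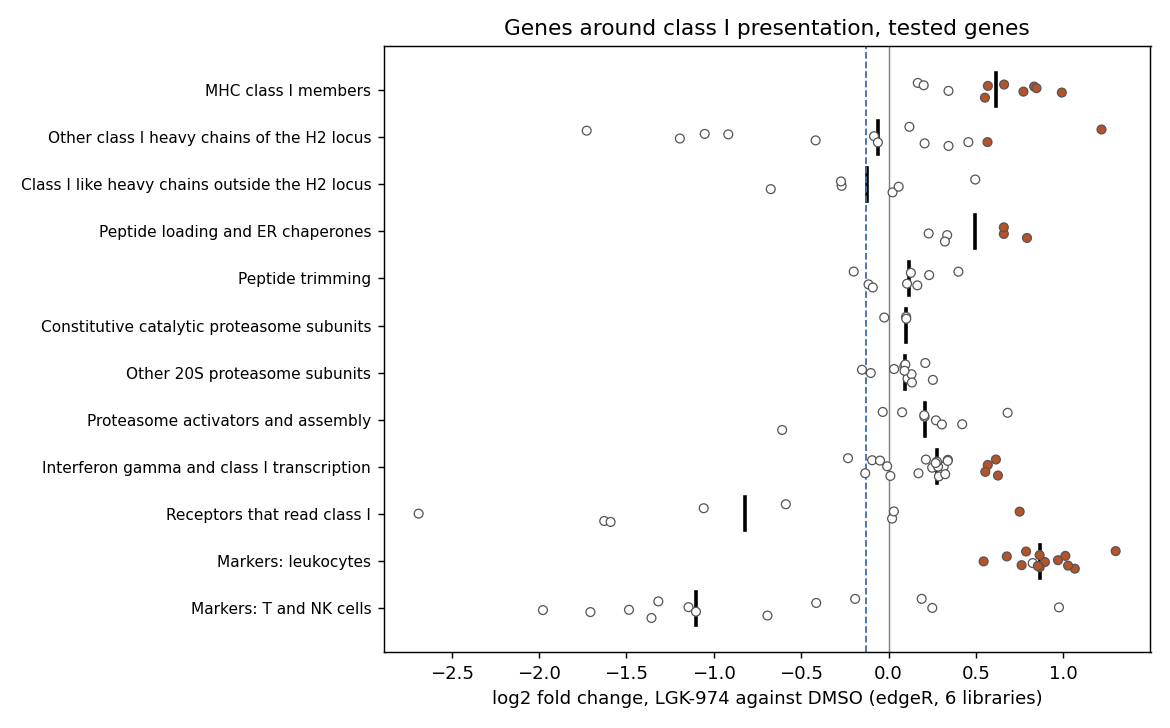
Log2 fold change (edgeR, 6 libraries) of each tested gene of the members, of 9 pathway lists and of 2 marker lists, with filled points at an unadjusted p under 0.05, a black bar at the median of the list and a dashed line at the median of all tested genes (-0.13). The members (median 0.61), loading chaperones (0.50) and leukocyte markers (0.86) lie to the right, and the constitutive subunits (0.10) lie near 0.

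Markers of leukocytes moved with the members. Of 14 such markers, 13 were higher with LGK-974 at an unadjusted p under 0.05, where 6.26% of all tested genes were. Their median log2 fold change was 0.86 (0.79 without DMSO 1). Their summed level was 482 to 654 CPM with LGK-974 against 276 to 327 CPM with DMSO. Lyz2, the lysozyme of myeloid cells, led them by p-value (log2 fold change 1.30), before Arhgdib (0.86) and Cd53 (1.07). For macrophages 10 of 12 markers were higher at that p (6.26% of all tested genes), led by Mpeg1 (1.19), Adgre1 (0.88) and Cd68 (1.06). The summed level of the macrophage markers was 579 to 627 CPM with LGK-974 against 314 to 450 CPM with DMSO. The defining leukocyte gene Ptprc, named after its value was seen, was detected in every library, at 39.5 to 54.8 CPM with LGK-974 and 21.8 to 28.8 CPM with DMSO. The part of leukocyte abundance in the differences of the members was not tested.
T and NK cell markers had a median log2 fold change of -1.10, and -0.16 without DMSO 1. Of 14, 13 were tested and 0 were higher at an unadjusted p under 0.05 by edgeR, 6 were under 1 CPM in every library, and the summed level was 19.3 to 24.1 CPM with LGK-974 and 21.1 to 42.2 CPM with DMSO. The smallest p-values belonged to Cd3e (log2 fold change -1.71), Cd3g (-1.49) and Cd28 (-0.69), each highest in DMSO 1, and without it they had -0.49, -0.18 and -0.48. Of 8 tested neutrophil markers, 1 was lower at that p, Cxcr2 (log2 fold change -1.03, and -0.28 without DMSO 1), with Mmp8 at 1.02 and Csf3r at -0.22. Among all 20094 tested genes, 2699 had an unadjusted p under 0.05 in either direction, 1257 of them higher.
At the same threshold 4 of 10 fibroblast markers were higher, where 6.26% of all tested genes were. They were Col3a1 (log2 fold change 1.14), Col1a2 (1.07), Col1a1 (1.12) and, named after its value was seen, Pcolce (0.56). The summed level of the fibroblast markers was 3482 to 5488 CPM with LGK-974 against 1796 to 2841 CPM with DMSO. Endothelial markers gave 0 of 10 at an unadjusted p under 0.05 (median 0.02, with Vwf at -0.37, Kdr at 0.28 and Flt1 at -0.25). Of 14 cardiomyocyte markers, 12 had a log2 fold change below 0, with Ckm at -0.63 and Myl3 at -0.56, and 1, Actc1, was higher (0.86). The median of the list was -0.42, against -0.13 over all tested genes. These markers show that the tissue labelled as heart held cardiomyocyte RNA in every library, with 42840 to 66966 CPM summed. Whether the mix of these cells contributes to the values of the members was not tested.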

How the data were processed

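RNA of the infarct area was sequenced after depletion of ribosomal RNA and capture with an RNA Access kit. The authors deposited kallisto estimated counts and TPM per transcript, made on an index of GRCm38 transcripts. The version of kallisto and the trimming are not given in the sources used here. A read that fits several transcripts is split between them, so these values can be fractional. The deposited TPM values adjust for transcript length and library total, and their sums per gene were used for ratios and for comparing genes.

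Of 118489 transcripts, 98.6% were joined to 36047 genes through GENCODE vM21, and the counts of a gene's transcripts were added up and rounded. Genes reaching 10 counts in 3 or more libraries were tested with edgeR 4.0.16 (quasi-likelihood, TMM, treatment as the only term, R 4.3.3) and Benjamini-Hochberg adjustment over all of them. The authors used DESeq2, which is an alternative here (version 1.42.0), as is limma-voom (limma 3.58.1). CPM values use TMM-scaled library sizes. Log2 fold changes are LGK-974 minus DMSO. Ratios were compared with an exact two-sided permutation test over the 6 libraries (SciPy 1.17.1). Data handling and plots used Python 3.11.15, NumPy 2.4.6, pandas 2.3.3 and matplotlib 3.10.9. Depth leaves counting error small for most members, so the 3 libraries per group limit the precision.

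The members and lists were chosen with earlier results of these data known. Named were all members, the constitutive catalytic subunits, the tested heavy chains of the H2 locus, up to 3 genes of each other list with the smallest p, Ifng and Irf1, and the 5 genes outside the lists whose log2 CPM correlated best with the mean z-score of the members. A gene that the rule also names is not reported here. The lists cover heavy chains inside and outside the H2 locus, loading, trimming, the proteasome, interferon gamma and class I transcription, class I receptors, and markers of leukocytes, macrophages, T and NK cells, neutrophils, fibroblasts, endothelial cells and cardiomyocytes. Same-numbered libraries of both groups come from different animals. Their deviations from the group means correlated at 0.487, -0.061 and 0.315, against -0.514 to 0.157 for libraries of different numbers. The labels do not say whether a number stands for a shared batch. The replicate number was therefore used as a block only in an alternative. Alternatives changed the normalization, test, filter, counts, gene types, background and libraries.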

Additional observations from a re-analysis of the deposited data

How the results depend on the processing

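All members but Tapbp kept a log2 fold change above 0 in each of 15 alternative fits, and B2m, Tap1, Psmb8 and Nlrc5 kept an unadjusted p under 0.05 in each. Tapbp ranged from -0.028 (without DMSO replicate 1) to 0.47 (without DMSO replicate 3) when a library was left out. Genes at an adjusted p under 0.05, 0 by edgeR, were 315 with DESeq2, 1206 with no filter on low counts, and 0 to 2 when a library was left out. Members at an adjusted p under 0.05, also 0, were 2 with DESeq2 (B2m and Nlrc5) and 3 with no filter (Tap1, Psmb8 and Nlrc5), and 0 in the other fits, with limma-voom, size factors of DESeq2 or background subtraction among them. Genes at an unadjusted p under 0.05, 2699 by edgeR, were 4477 with DESeq2, 4790 with no filter, 4628 without DMSO replicate 3, 1526 without LGK-974 replicate 1 and 821 without LGK-974 replicate 3. When each library was left out, the members' median log2 fold change was 0.51 to 0.78 and 4 to 7 members were higher at an unadjusted p under 0.05, the 4 without LGK-974 replicate 3. With counts less background the members' median was lower, at 0.48, and 7 members were higher at that p.

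Medians of lists moved as follows. That of the other H2 heavy chains was 0.28 with counts less background, 0.20 with no filter and -0.25 to 0.35 with a library left out. That of the constitutive catalytic subunits was -0.043 with counts less background and -0.056 to 0.27 with a library left out. Peptide trimming ranged from -0.011 to 0.31 and class I receptors from -1.04 to 0.22 with a library left out. The log2 difference of Psmb9/Psmb6 turned from -0.14 to 0.26 in CPM, 0.045 with the dominant transcript and 0.063 with counts less background. Members with an interferon-response motif numbered 1 with the full element (GAAA, 2 bases and GAAA) and 3 with AANNGAAA, which was chosen after seeing the data. With the dominant transcript, Tap1/Tap2 (0.64) and Psmb10/Psmb7 (1.85) kept their direction but no longer separated the groups. The dominant transcripts of Tap2 and Psmb10 are not annotated as protein-coding. The cause of these changes was not tested.

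What the replicate numbers stand for is not given in the labels. With the replicate block, 0 genes and 0 members had an adjusted p under 0.05, the median log2 fold change of the members was 0.62, and 3312 genes had an unadjusted p under 0.05. The summed heavy chains had a log2 fold change of 0.36 with the block. The number of libraries limits these results, and the estimated dispersion was 0.238 with DMSO 1 and 0.0825 without it.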

Other observations

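Receptors that read class I were mostly at low counts in these libraries. Of 8 tested, 1 was higher with LGK-974 at an unadjusted p under 0.05 (6.26% of all tested genes). This was Pirb, an inhibitory receptor of myeloid cells that binds class I, at 35.4, 31.7 and 48.0 CPM with LGK-974 and 21.1, 24.9 and 22.4 CPM with DMSO (log2 fold change 0.75, SE 0.189, adjusted p = 0.368 by edgeR, 0.71 without DMSO 1). Cd8a, the coreceptor of cytotoxic T cells, was at 1.76, 2.22 and 2.19 CPM with LGK-974 and 14.2, 3.42 and 1.5 CPM with DMSO, and its log2 fold change of -1.63 shrank to -0.24 without DMSO 1. Klrc2, a natural killer cell receptor for Qa-1, had a log2 fold change of -1.59, and -0.40 without DMSO 1, which held 6.11 CPM of it against 0.280 to 2.08 CPM in the other libraries.

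Class I-like molecules encoded outside the H2 locus gave 0 of 6 at an unadjusted p under 0.05 by edgeR and 0 at an adjusted p by DESeq2, with a median log2 fold change of -0.12. The smallest p-values were those of Procr, the protein C receptor (0.50), Hfe, a regulator of iron uptake (-0.27), and Cd1d1, which presents lipids (-0.27). In all 6 genes the groups overlapped.

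The 5 tested genes outside the lists whose level followed the members most closely over the 6 libraries were Dpysl2 (Pearson r = 0.999 with the mean z-score of the members), Prr13 (0.998), Adam15, Lmo4 and Crk (0.995 each). These are the highest of many correlations over 6 libraries that differ in depth and group, and they carry no test. Their log2 fold changes were 0.45, 0.34, 0.59, 0.52 and 0.34.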
